A study of Sus scrofa with 8 samples.

Results

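NF-kB is a transcription factor that turns on inflammatory and survival genes, and 6 genes of its core, NFKB1, NFKBIA, RELA, REL, IKBKG and IKBKB, were examined in pig lung. All non-control probes of a 1-color Agilent pig array were taken whose target carries the symbol of a member, either in the tables of the study or through a RefSeq accession in the array design. There were 14 such probes of 43603 non-control probes, and all 14 were well above background, by the flag of the scanner software, on at least 1 array. NFKB1 had 6 probes, NFKBIA 4, IKBKB 2, RELA 1 and IKBKG 1. No probe was found for REL, the gene of the c-Rel subunit, so 5 of the 6 genes were measured. A RefSeq transcript was the target of 8 probes, and the other 6 were designed on GenBank, EST consensus or Ensembl sequences or carried their own probe ID as target.

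Whole lung of female pigs aged 6 months was hybridized on 8 arrays, 2 per group, each from an individual pig by the methods. TH were Tibetan pigs, a breed native to the plateau, kept at 3500 m. TL were Tibetan pigs that had been moved to 40 m at 1 month of age. DL were Duroc pigs, a lowland breed, kept at 40 m, and DH were Duroc pigs that had been moved to 3500 m at 1 month of age. The moved groups are therefore TL and DH. The contrast of TH and DL with TL and DH is at once the breed by altitude interaction and the contrast of resident with moved pigs. It is also the contrast between the 2 slides, and these cannot be told apart. By the methods TH were raised in Yunnan and DL in Guangdong, and no farm is named for TL and DH. Altitude therefore cannot be told apart from the place where the pigs were kept.

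In resting cells the dimers of NF-kB are held in the cytoplasm by IkB proteins. NFKB1 encodes p105, which is processed to the p50 subunit, and RELA encodes p65, the subunit that activates transcription. NFKBIA encodes IkB-alpha, the inhibitor that binds these dimers and is itself a target gene of NF-kB. IKBKB encodes IKK-beta, the kinase that marks IkB-alpha for degradation, and IKBKG encodes NEMO, the regulatory subunit without which the kinase complex does not respond to most inflammatory signals. In lung the pathway is best known from macrophages, epithelium and endothelium during inflammation, and it is also engaged under low oxygen.

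Values below are the deposited log2 values, which had the same median of 7.40 on each array. The TL arrays stood apart from the rest. Their median raw spot signal was 324 and 333.5 against 207.5 to 230 on the others, and they had 31723 and 31641 probes well above background against 26466 to 29319. Pearson's r over probes was 0.918 to 0.941 between a TL array and an array of another group, 0.961 to 0.967 among TH, DH and DL, and 0.981 to 0.994 within a group. Among 41 probes printed in 5 spots each, the median spot difference was 0.0534 log2 units within an array and 0.0538 between the arrays of a group. Over the 14 member probes the SD between the arrays of a group had a median of 0.033 and exceeded 0.1 in 6 of 56 cases, with a highest of 0.23 for IKBKB P034186 in DL. With a median spread as small as that between spots of one array, the values cannot show that both arrays of a group hold different pigs, and the SEs and p-values below may measure technical spread alone. With 2 arrays per group, precision is limited by their number.

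At RefSeq-target probes the largest altitude effects were those of IKBKG and NFKB1. Across both breeds, the mean over pigs at 3500 m exceeded that at 40 m by 0.99 log2 units for IKBKG (SE 0.022) and by 0.59 for both RefSeq probes of NFKB1. RELA was higher in Tibetan pigs by 0.48 (SE 0.024), and IKBKG had a breed effect of -0.66. NFKBIA and IKBKB had no called effect at their reference probes, the brightest probes with a RefSeq target, and no effect over 0.38 in size. The 3 NFKB1 probes on GenBank or EST sequences had altitude effects opposite in sign to those of the RefSeq probes, and interactions below -2. In Duroc pigs alone P105461 and P344798 went the same way as the RefSeq probes, with DH minus DL of 0.58 and 0.50. P184106 did not, with -0.19.

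These effects come from one limma model of the 4 group means on 34406 probes, those flagged as well above background on 1 array or more. A probe was called at a Benjamini-Hochberg FDR below 0.0001, the threshold of the study. The breed effect, Tibetan minus Duroc, was called for 5 of the 14 probes, 4 higher and 1 lower, against 27.4% of all tested probes. The altitude effect, high minus low, was called for 7, 4 higher and 3 lower, against 26.3% of all tested probes. The interaction was called for 3, all of them negative, against 28.4% of all tested probes. For these 3 the breed effect was called too, as it was for 58.5% of all probes with a called interaction. Within a slide breed and altitude change together. TH minus DL was called for 0 of the 14 probes, against 14.1% of all tested probes, and TL minus DH for 8, against 33.9%. In all, 8 of 14 probes were called for breed, altitude or the interaction, against 45.9% of all tested probes, and 6 for none. Probes named for a gene may share a transcript and are then not independent, so the counts describe probes and not genes.

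The scaling mattered for some of these counts. With processed signals scaled to the 75th percentile of each array, 5 probes were higher and 4 lower by breed, and 6 were higher and 2 lower by altitude, against 33.1% and 30.4% of all tested probes called. Under this scaling the median interaction of all tested probes was 0.34 instead of 0.21, and 64.8% instead of 53.4% of all altitude calls were positive. With local background subtracted the median interaction was 0.07.

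**Figure D1:**
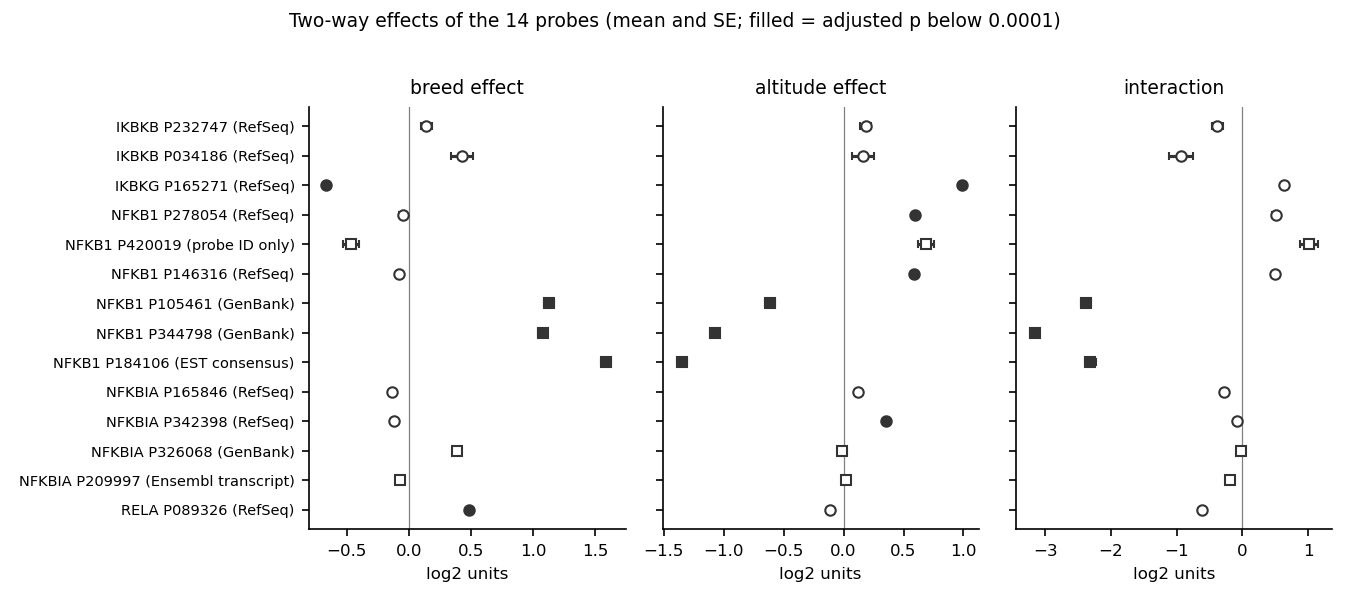
Breed effect, altitude effect and interaction of the 14 probes in log2 units (x axes), with bars for the standard error; circles have a RefSeq target, squares another target, and filled symbols were called at an FDR below 0.0001. The 3 NFKB1 probes on GenBank or EST sequences lie right of 0 for breed and left of 0 for altitude and interaction, where their values run from -3.16 to -2.32.

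The comparisons that leave out TL gave fewer calls. TH minus DH was called for 0 of 14 probes, against 9.33% of all tested probes. The unadjusted p of limma was under 0.05 for 10 of the 14, and 10 passed at an FDR below 0.05. With an intensity trend in limma 1 probe was called, against 20.7% of all tested probes, and without moderation of the variances 0, against 3.46%. DH minus DL was called for 1 probe, that of IKBKG, against 9.95% of all tested probes. The value was higher in DH than in DL for 12 of the 14 probes, as it was for 49.0% of all tested probes. The exceptions were a NFKB1 probe, P184106, and a NFKBIA probe, P326068, and the latter turned positive with the 75th percentile and with the median signals. Both comparisons use the DH arrays and cross the slides.

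NFKB1 was read at its reference probe, P278054. Its log2 values were 12.63 and 12.69 in TH, 11.78 and 11.84 in TL, 12.47 and 12.44 in DH and 12.09 and 12.14 in DL. The groups did not overlap, in the order TH, DH, DL, TL. The altitude effect was 0.59 (SE 0.027, adjusted p = 2.51e-05 in limma), a 1.51-fold higher value at 3500 m. The breed effect was -0.05 (SE 0.027, adjusted p = 0.151). TH exceeded DH by 0.21 (adjusted p = 0.00690) and DH exceeded DL by 0.34 (adjusted p = 0.00108), neither of which passed the threshold. The interaction of 0.51 did not pass either (adjusted p = 5.20e-04), and it was 0.82 with the 75th percentile (adjusted p = 1.04e-04).

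The other RefSeq probe of NFKB1, P146316, gave nearly the same picture. It read 12.47 and 12.52 in TH, 11.62 and 11.69 in TL, 12.34 and 12.31 in DH and 11.99 and 11.98 in DL. Its altitude effect was 0.59 (SE 0.026, adjusted p = 2.25e-05), and Pearson's r with the reference probe over the 8 arrays was 0.998. Its interaction of 0.50 was not called, but with the 75th percentile it was 0.78 and called (adjusted p = 7.26e-05). With an intensity trend in limma the interactions of both RefSeq probes were called (adjusted p = 5.11e-05 for P278054 and 4.59e-05 for P146316). The altitude effect of each probe lost its call when any 1 of the 8 arrays was left out, with values from 0.58 to 0.61 and an adjusted p of up to 2.87e-04 for P278054, and from 0.57 to 0.61 and up to 3.06e-04 for P146316. The call of P278054 was also lost with median signals, at 0.56 (adjusted p = 1.14e-04).

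The GenBank and EST probes named NFKB1 had their highest values in TL. P344798 read 9.98 and 9.92 in TH, 12.63 and 12.59 in TL, 10.49 and 10.42 in DH and 9.90 and 10.00 in DL. P105461 read 11.04 and 11.07 in TH, 12.88 and 12.83 in TL, 11.04 and 11.19 in DH and 10.52 and 10.57 in DL. P184106, on an EST consensus, read 8.85 and 8.87 in TH, 11.39 and 11.35 in TL, 8.37 and 8.49 in DH and 8.57 and 8.67 in DL. In each of these probes both TL arrays lay above all arrays of the other groups, by more than a log2 unit. Outside TL they differed from one another: DH lay above DL for P344798 by 0.50 and for P105461 by 0.58, whereas DH minus DL was -0.19 for P184106.

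The breed effect of these probes was 1.08, 1.13 and 1.59 for P344798, P105461 and P184106, with adjusted p-values of 8.66e-06, 1.14e-05 and 4.94e-06. Their altitude effects were -1.08, -0.61 and -1.35, with adjusted p-values of 9.87e-06, 9.38e-05 and 8.80e-06. Their interactions were -3.16 (SE 0.070), -2.38 (SE 0.080) and -2.32 (SE 0.083), with adjusted p-values of 2.83e-06, 9.34e-06 and 1.14e-05. The interaction of P344798 stayed below the threshold whichever of the 8 arrays was left out, from -3.21 to -3.11. Those of P105461 and P184106 lost their calls without a TH, TL or DL array, with adjusted p-values of up to 1.66e-04 and 2.00e-04. Of the breed and altitude calls, that of P184106 for breed was lost without TL1 or TL2 (1.56 to 1.62, adjusted p up to 1.11e-04), that of P105461 for altitude without any 1 array (-0.65 to -0.58, up to 9.35e-04), those of P105461 for breed and P184106 for altitude without a TH, TL or DL array, that of P344798 for breed without a TH, TL or DH array, and that of P344798 for altitude without any array but DL1 (up to 1.91e-04 in these 4). The altitude call of P105461 was also lost with median signals (-0.60, adjusted p = 1.10e-04) and with the 75th percentile, where the effect was -0.41 (adjusted p = 4.66e-04).

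P420019, which the array design lists by its probe ID alone, was dim. It read 5.83 and 6.05 in TH, 4.82 and 4.66 in TL, 5.89 and 5.90 in DH and 5.75 and 5.68 in DL, and it was not well above background on 1 DH array and on both DL arrays. TL was the lowest group, as for the RefSeq probes, although the probe was flagged well above background on both TL arrays and on neither DL array. With local background the means were 8.84 in TL and 8.90 in DL, against deposited means of 4.74 and 5.72. The size of the TL difference is therefore uncertain at this dim probe, and no effect was called.

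**Figure D2:**
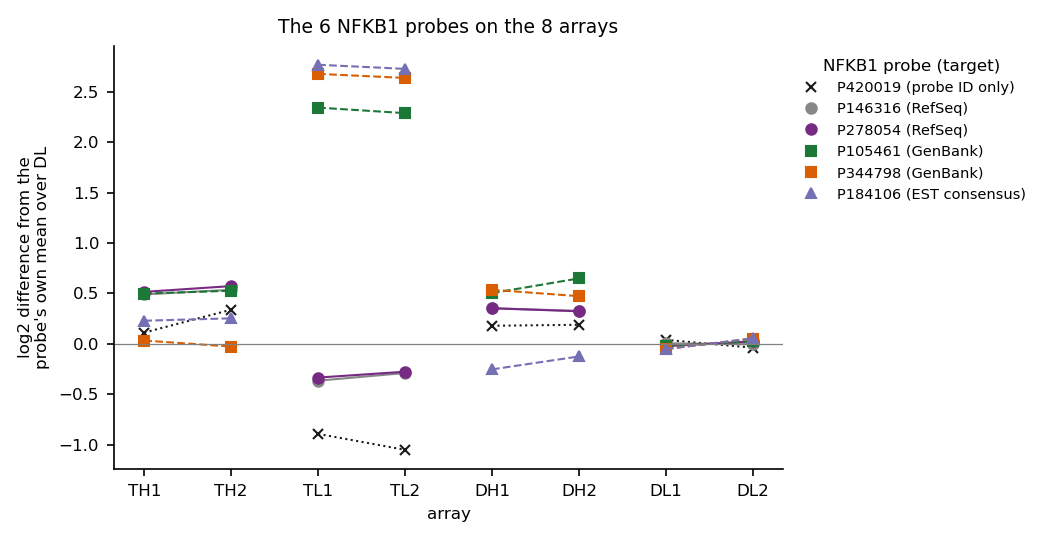
Log2 difference of each NFKB1 probe from its own mean over the DL arrays (y axis) on each of the 8 arrays (x axis); lines join the 2 arrays of a group, and colors and symbols mark the probe and its target. On the TL arrays the 2 RefSeq probes and P420019 lie below 0 and the 3 GenBank and EST probes far above it. The probes lie closer together on the TH and DH arrays but still differ. Their means run from 0.0019 (P344798) to 0.54 (P278054) in TH and from -0.19 (P184106) to 0.58 (P105461) in DH.

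The gap between the kinds of probe was taken per array as the mean of the 3 GenBank and EST probes minus the mean of the 2 RefSeq probes, as a description with no test. Only its change between groups can be read, since levels of different probes are not comparable. It was 0.60 and 0.49 on the TL arrays and ran from -2.65 to -2.31 on the other 6. P420019, which goes with the RefSeq probes in TL, is left out of this gap. With P420019 among the 4 other probes the gap was -1.27 and -1.41 on the TL arrays and ran from -3.63 to -3.33 on the others.

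Opposed probes were not confined to NFKB1. Among 259 genes with both kinds of probe, 49 (18.9%) had a RefSeq probe that was lowest in TL and another probe that was highest in TL. An interaction below -2 was found for 1.60% of tested RefSeq-target probes and for 14.8% of the others. Among the members it was 0 of 8 and 3 of 6. TL was the highest group for 16.5% of RefSeq-target and 32.0% of other probes, and the lowest for 52.3% and 41.95%. Whether probes of one gene were opposed more often than probes of unrelated genes was not tested. The gene names of the 6 other member probes rest on the tables of the study and were not checked against sequence.

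RELA had 1 probe, P089326, with a RefSeq target. It read 7.999 and 7.98 in TH, 8.41 and 8.42 in TL, 7.78 and 7.85 in DH and 7.63 and 7.61 in DL. The groups did not overlap, in the order TL, TH, DH, DL, so that both Tibetan groups lay above both Duroc groups. The breed effect was 0.48 (SE 0.024, adjusted p = 3.17e-05), a 1.40-fold higher value in Tibetan pigs. The altitude effect was -0.12 (adjusted p = 0.00752). TH exceeded DH by 0.17 (adjusted p = 0.00820) and DH exceeded DL by 0.19 (adjusted p = 0.00553). The breed call was lost without any 1 of the 8 arrays (0.47 to 0.50, adjusted p up to 4.26e-04), with median signals (0.45, adjusted p = 1.42e-04) and with local background, where the effect was only 0.18 (adjusted p = 1.29e-04). With the 75th percentile it was 0.73 and called (adjusted p = 1.75e-05). The interaction of -0.62 was not called (adjusted p = 1.57e-04), but with the 75th percentile it was -1.02 and called (adjusted p = 6.27e-05).

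RELA and the reference probe of NFKB1, which encode partners in the common p50 and p65 dimer, had opposite extremes in TL. TL was the highest group for RELA and the lowest for NFKB1. Pearson's r between both probes was -0.455 over 8 arrays, which stand for 4 groups of 2.

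NFKBIA had a very bright reference probe, P165846, with raw signals of 185140 to 268480 and no saturated spot. Its log2 values were 17.52 and 17.51 in TH, 17.53 and 17.53 in TL, 17.80 and 17.78 in DH and 17.56 and 17.50 in DL. DH was highest, and the DL arrays spanned the values of TH and TL. DH exceeded DL by 0.26 (SE 0.030, adjusted p = 0.00124), a 1.20-fold difference, and TH minus DH was -0.28 (adjusted p = 0.00104). Neither passed the threshold, nor did the breed effect of -0.14 or the altitude effect of 0.12.

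The other RefSeq probe of NFKBIA, P342398, also had its highest values in DH. It read 14.99 and 14.96 in TH, 14.69 and 14.64 in TL, 15.15 and 15.12 in DH and 14.73 and 14.76 in DL. Its altitude effect of 0.35 was called (SE 0.022, adjusted p = 7.69e-05), but not with median signals or local background, and not without any 1 of the 8 arrays (0.34 to 0.36, adjusted p up to 7.72e-04). P209997, on an Ensembl transcript, read 16.77 and 16.69 in TH, 16.80 and 16.81 in TL, 16.89 and 16.90 in DH and 16.78 and 16.78 in DL. Here too DH was highest, by 0.11 over DL (adjusted p = 0.0346). P326068, on a GenBank sequence, differed from the rest. It read 8.92 and 8.97 in TH, 8.91 and 9.01 in TL, 8.58 and 8.55 in DH and 8.58 and 8.56 in DL. Its Tibetan groups overlapped with each other and lay above both Duroc groups, with a breed effect of 0.38 (adjusted p = 1.73e-04) that did not pass the threshold. The gap between the 2 other and the 2 RefSeq probes was -3.26 and -3.17 on the TL arrays and ran from -3.74 to -3.40 on the others.

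The place of TL for NFKBIA depended on how the values were made. With processed signals scaled to the 75th percentile, the reference probe was lowest in TL, at 6.31 against 6.88 in TH, 7.26 in DH and 6.80 in DL. Under that scaling its breed effect was -0.44 (adjusted p = 3.69e-05) and its altitude effect 0.51 (adjusted p = 2.26e-05), both called, and its interaction was 0.10 instead of -0.28. The slope of the deposited on the log2 processed signals was 1.09 on both TL arrays and 0.96 to 0.99 on the others. Its part in this difference was not tested. DH remained above DL under all 4 sets of values for this probe.

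**Figure D3:**
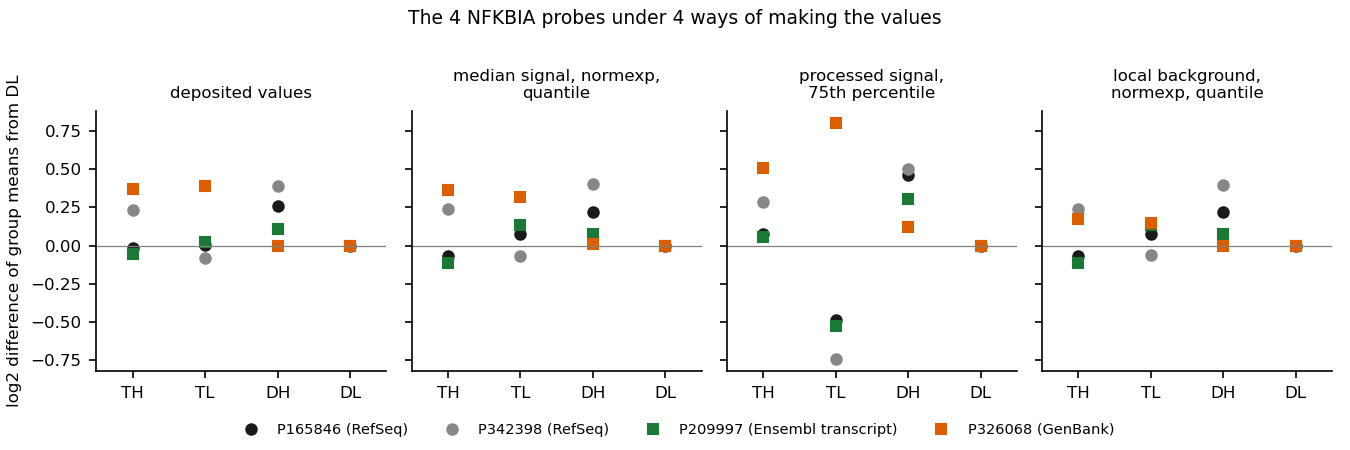
Group means of the 4 NFKBIA probes as log2 differences from DL (y axes) for TH, TL, DH and DL (x axes) under 4 ways of making the values; circles have a RefSeq target and squares another. The bright probes P165846, P342398 and P209997 fall far below DL in TL with the 75th percentile and lie near DL there with the other values.

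IKBKB was measured by 2 RefSeq probes. The reference probe, P232747, read 7.86 and 8.02 in TH, 7.98 and 7.91 in TL, 7.98 and 7.999 in DH and 7.59 and 7.64 in DL. TH, TL and DH overlapped, and both DL arrays lay below all others. DH exceeded DL by 0.37 (SE 0.063, adjusted p = 0.00493), which did not pass the threshold, and TH and DH differed by -0.05 (SE 0.063, adjusted p = 0.545). P034186 read 6.06 and 6.15 in TH, 6.44 and 6.37 in TL, 6.24 and 6.05 in DH and 5.68 and 5.35 in DL. It was not well above background on both DL arrays, so its value in TL was at least 1.64-fold that in DL, in TH at least 1.33-fold and in DH at least 1.37-fold. Each bound divides the mean of TH, TL or DH by a floor for DL, which was the dimmest probe signal well above background on an array or the probe's own value if higher. No effect of IKBKB was called at either probe, and Pearson's r between them was 0.830 over 8 arrays. The fitted DH minus DL of P034186 was 0.63 (adjusted p = 0.00975), with the values below background as measured.

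IKBKG had 1 probe, P165271, with a RefSeq target, and the largest altitude effect of the RefSeq-target member probes. It read 9.63 and 9.62 in TH, 8.36 and 8.29 in TL, 9.98 and 9.96 in DH and 9.29 and 9.31 in DL. The groups did not overlap, in the order DH, TH, DL, TL, with both groups at 3500 m above both at 40 m. The altitude effect was 0.99 (SE 0.022, adjusted p = 4.51e-06), a 1.98-fold higher value at high altitude, and it kept its call without any 1 of the 8 arrays (0.97 to 1.00, adjusted p up to 9.32e-05) and with all 3 other sets of values. Its size depended on them, with 0.91 for median signals, 0.88 for the 75th percentile and 0.53 for local background (adjusted p = 4.42e-06 for the last). The breed effect was -0.66 (SE 0.022, adjusted p = 9.33e-06), with the Duroc group higher at each altitude.

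IKBKG was higher in DH than in DL too, a comparison without the TL arrays that crosses slides and sets moved against resident pigs. DH exceeded DL by 0.67 (SE 0.031, adjusted p = 6.48e-05), a 1.59-fold difference, whereas TH minus DH was -0.35 (adjusted p = 5.33e-04). TH minus DL, within a slide but with breed and altitude changed together, was 0.32 and not called (adjusted p = 5.71e-04 in limma). In a fit without the TL arrays DH minus DL had an adjusted p of 3.32e-04, and it also lost its call with median signals (0.59, adjusted p = 8.16e-04), with local background (0.39, adjusted p = 1.79e-04) and without any 1 array (0.66 to 0.68, adjusted p up to 0.00106). The breed call of IKBKG was lost without TH1, TH2, DH1, DH2, DL1 or DL2 (-0.68 to -0.65, adjusted p up to 1.54e-04) and with median signals (-0.60, adjusted p = 1.10e-04). With local background the breed effect was -0.33 and called (adjusted p = 3.66e-05).

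**Figure D4:**
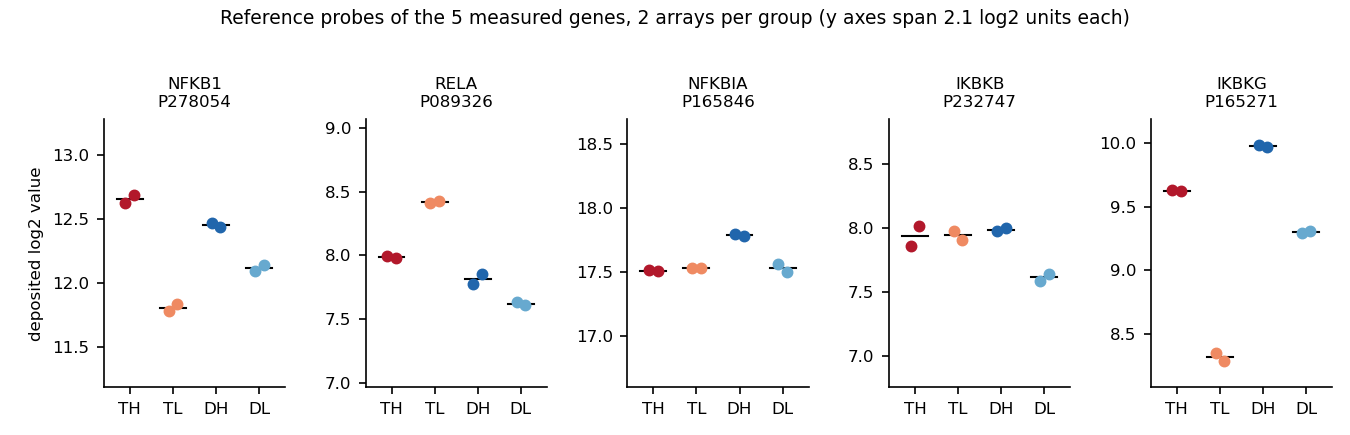
Deposited log2 values of the reference probe of each measured gene (y axes, each spanning the same range) in TH, TL, DH and DL (x axes); points are single arrays and bars group means. IKBKG and NFKB1 lie higher in TH and DH than in TL and DL, RELA lies highest in TL, and NFKBIA lies highest in DH.

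Each reference probe was compared with the 4980 to 4984 probes of other named genes that were well above background on all arrays, by Pearson's r over the 8 arrays. With 8 arrays in 4 groups many genes have nearly the same pattern, and r is given as a description. Nearest to NFKB1 were RFC3, a subunit of the DNA replication clamp loader, with 0.998, CENPM, a centromere protein, with 0.998, and POLR2L, a subunit of the RNA polymerases, with 0.997. Nearest to RELA were TPM2, a tropomyosin, with 0.998, ACTB, beta actin, with 0.996, and TMSB15A, a thymosin, with 0.996. Nearest to NFKBIA were CD4, a marker of helper T cells, with 0.993, LPL, lipoprotein lipase, with 0.991, and TLR4, the receptor for lipopolysaccharide, with 0.990.

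For the kinase complex, nearest to IKBKB were NRP1, a co-receptor for VEGF, with 0.977, PSMA6, a proteasome subunit, with 0.973, and ATP2A2, a calcium pump, with 0.967. Nearest to IKBKG were YBEY, an endoribonuclease, with 0.999, FZR1, an activator of the anaphase-promoting complex, with 0.999, and JPT1 with 0.998. YBEY had mean log2 values of 13.92 in DH, 13.57 in TH, 13.25 in DL and 12.23 in TL, the same order of groups as IKBKG.

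Other genes of the pathway were read at their reference probes, from lists of 11 further subunits and IkB proteins, 26 IKK kinases and ubiquitin regulators, 16 receptors and adaptors, and 24 target genes. Counts of called genes are read against 27.4% of all tested probes called for breed, 26.3% for altitude, 28.4% for the interaction, 9.33% for TH minus DH and 9.95% for DH minus DL. For RefSeq-target probes alone these shares were 28.5%, 35.3%, 27.7%, 14.5% and 11.85%. A reference probe has a RefSeq target where the gene has such a probe. Of the called genes named below, NFKBIZ, NKIRAS2, RNF31, IRAK2, MALT1, CD83 and CCL5 had none and were read at another probe. Among the further subunits and IkB proteins 5 were tested. The breed effect was called higher for 1 and lower for 1, altitude higher for 1, and the interaction higher for 2 and lower for 1. NFKBIZ, an atypical nuclear IkB protein, was higher in Tibetan pigs by 1.11 with an interaction of -1.69, and its group means were 14.28 in TL, 13.09 in TH, 12.82 in DH and 12.33 in DL. NKIRAS2, a Ras-like protein that binds IkB, had a breed effect of -1.07 and was higher at 3500 m by 0.69. For TH minus DH it was the 1 gene called, with -0.72, and for DH minus DL none was.

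Of the IKK kinases and ubiquitin regulators 8 were tested, and CHUK, the kinase subunit IKK-alpha, TBK1, TAB1, TRAF3, TNFAIP3 and UBE2N were called in none of the 5 comparisons. TRAF6, the ubiquitin ligase that passes signals from Toll-like receptors to IKK, had means of 12.40 in DL, 10.86 in TH, 10.76 in TL and 10.34 in DH. DL was its highest group, the DH minus DL difference was -2.06 (adjusted p = 1.12e-05), and the altitude effect was -0.98. Its breed effect was -0.56, its interaction 2.15 and TH minus DH 0.52. RNF31, a ligase of linear ubiquitin chains that bind NEMO, had an altitude effect of 0.84 and an interaction of 1.87, with TL as its lowest group.

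Of the receptors and adaptors 10 were tested, and 3 (30.0%) were called for altitude, all higher at 3500 m. This share lies between the 26.3% of all tested probes and the 35.3% of RefSeq-target probes. TNFRSF1B, a receptor for TNF, was higher by 0.78 and IRAK2, an adaptor kinase of Toll-like receptors, by 0.57. For breed 1 was called higher and 2 lower. MALT1, which links antigen receptors to IKK, had a breed effect of 0.63 at a probe without a RefSeq target. Its group means were 17.71 in TL, 16.86 in DH, 16.79 in TH and 16.37 in DL. At 3500 m Tibetan pigs were thus not higher for MALT1. TNFRSF1B and MYD88, the main Toll-like receptor adaptor, had breed effects of -0.90 and -0.70. MALT1 also had the 1 called interaction, -1.41. TH minus DH was called for TNFRSF1B alone, with -0.75, and DH minus DL for IRAK2 and TNFRSF1B, with 0.78 and 0.64.

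Target genes made up the longest tested list. Of 19 tested, the breed effect was called for 10 (52.6%, against 27.4% of all tested probes), with 9 of them positive. Of these 9, CCL20 and CSF2 were highest in TH and the others in TL. At 3500 m CCL5 and CD83 were lower in Tibetan pigs, with TH minus DH of -0.19 and -0.44, neither called. The rest of the 9 were higher there. The median breed effect of the list was 0.41 against -0.07 over all tested probes. CXCL2 and CCL20, which attract neutrophils and lymphocytes, were higher in Tibetan pigs by 1.53 each, and TNF had a breed effect of -0.39. For altitude the effect was called positive for 3 and negative for 7 (52.6%, against 26.3% of all tested and 35.3% of RefSeq-target probes). All with a negative call had their highest mean in TL. In Duroc pigs alone CCL5, CXCL2 and CD83 of these were higher at 3500 m, with DH minus DL of 1.13, 0.29 and 0.39. CXCL8, CCL2, ICAM1 and IL1A were lower there. The median altitude effect was -0.35 against 0.01 over all tested probes. With the 75th percentile 4 were called positive and 4 negative. TNF and CCL20 were higher at 3500 m by 0.93 and 0.72, while CD83, a marker of activated dendritic and B cells, and CXCL8, a neutrophil attractant, had altitude effects of -1.46 and -1.12.

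The interaction was called for 6 of the 19 target genes (31.6%, against 28.4%), 1 positive and 5 negative. IL6 had the positive one, 0.97, and CD83 and CCL5 had the largest negative ones, -3.69 and -3.00, both at probes without a RefSeq target. TH minus DH was called higher for 5 and lower for 1 (31.6%, against 9.33% of all tested and 14.5% of RefSeq-target probes). CCL20 and CCL2, chemokines for lymphocytes and monocytes, were higher in TH than in DH by 2.04 and 1.28, and IL1A had a difference of -0.59. DH minus DL was called for 3 (15.8%, against 9.95%), CCL5 and TNF with 1.13 and 0.77 and CXCL8 with -0.91. NFKBIZ and TNFAIP3 each stand in 2 of the lists.

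**Figure D5:**
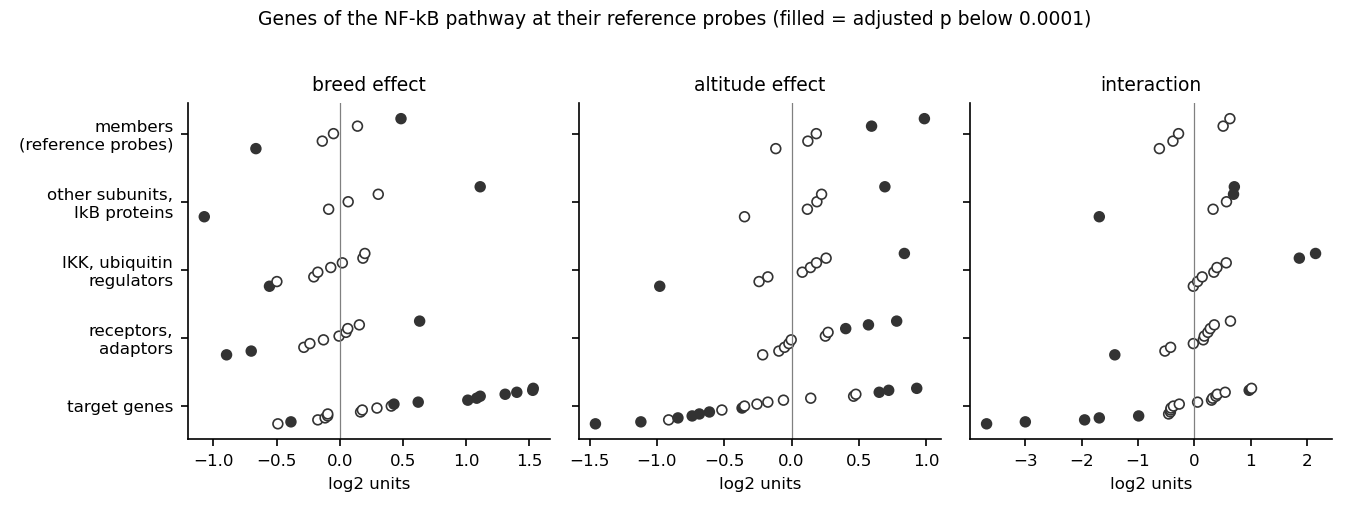
Breed effect, altitude effect and interaction in log2 units (x axes) of each tested gene at its reference probe, by list (y axis, genes spread vertically by value within a list); filled points were called at an FDR below 0.0001. Of the target genes, 9 filled points lie right of 0 and 1 left of it for breed, and 3 right and 7 left for altitude.

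No call of a list gene turned its sign under the 3 other sets of values. Of 57 such calls, 32 were made under all 3 of them and 15 were kept whichever array was left out. None of the TH minus DH and DH minus DL calls was kept in that way.

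Markers of the cell types in lung were read beside these results. The 23 tested markers of lung cells and leukocytes were well above background on all 8 arrays. Of the 6 tested skeletal muscle markers 3 were, while ACTA1 and MYLPF were on 7 arrays and TNNT3 on 5. The other markers had no named probe. Surfactant genes (4 of 7 alveolar type II markers tested) had a log2 summed level of 18.81 to 19.32 over the arrays, endothelial markers (6 of 7) 17.63 to 18.17, macrophage markers (3 of 6) 17.03 to 17.59, and skeletal muscle markers (6 of 7) 11.70 to 12.67. PR39, the 1 of 8 neutrophil markers tested, had 9.80 to 9.92 in TL, 6.38 to 6.43 in DH and 8.59 to 8.65 in TH and DL. T cell markers (6 of 7) summed to 14.94 to 14.96 in TH, 14.76 to 14.81 in DH, 14.30 to 14.35 in TL and 14.23 in DL. Taken singly, 5 of these 6 had both group means at 3500 m above both at 40 m, as IKBKG and the NFKB1 reference probe did. The exception was CD4, with 8.86 in DH, 8.14 in DL, 8.12 in TL and 8.09 in TH. CD3G met this by a narrow margin, with 12.88 in TH against 12.86 in DL. The share of all tested probes with this pattern was not counted, so the count cannot be read as particular to T cells. B cell markers (3 of 7) summed to 14.97 to 14.98 in TH and to 12.47 to 12.99 in the other groups. The order of groups of the NFKB1 reference probe was that of 3 of the 6 T cell markers, CD3D, CD3E and CD2, and not that of CD3G and CD4, which were highest in DH, or CD8A, which was lowest in DL. These T cell markers were named after their values were seen. The part of leukocyte number in the levels of the members was not tested, and in whole lung more cells of a type and more RNA per cell cannot be told apart.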

How the data were processed

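Signals were extracted by the authors with Agilent Feature Extraction 10.7.3.1, per the file headers (9.1 in the submitters' processing notes). The deposited scanner files give spot intensity as median and processed signals, with a flag for those well above background. The main values are the log2 values that the authors deposited, normalized by RMA as the methods state. Their columns share 1 distribution, rank the probes almost as the processed signals do, and have a slope of 0.96 to 1.09 on the log2 of those, so that the scale is log2. The exact steps are unknown.

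A model of the 4 group means was fitted with limma 3.58.1 (R 4.3.3) to the 34406 probes that had this flag on 1 array or more. P-values were adjusted over all of them by Benjamini-Hochberg, with calls at an FDR below 0.0001. Other steps used Python 3.11.15, numpy 2.4.6, pandas 2.3.3 and matplotlib 3.10.9. Symbols came from the study's tables (3655 probes) and RefSeq accessions (2683 of 3250 matched), for 5678 probes and 3964 genes. All member probes were named. A reference probe is the brightest with a RefSeq target, else the brightest, and of each list up to 2 called genes with the largest positive and 2 with the largest negative effect were named. The members and lists were chosen with earlier results of these data known.

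The alternatives were median signals corrected by normexp and quantile normalized, processed signals scaled to the 75th percentile, local background with an offset of 50, other filters, FDR below 0.05, no moderation, an intensity trend, the replicate number or slide as a block, no TL arrays, and each array left out. Their use on the probes that are not reference probes and on list genes was added after seeing the data. Steps were tested on simulated data.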

Additional observations from a re-analysis of the deposited data

Results flagged for a closer look

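For 3 NFKB1 probes the difference between TH and TL was not that between DH and DL, by the interaction term of limma. The interaction was -3.16 log2 units for P344798, -2.38 for P105461 and -2.32 for P184106, all with adjusted p-values of 1.14e-05 or less. None of the 3 has a RefSeq target, and both RefSeq probes of NFKB1 had positive interactions of 0.50 and 0.51 that were not called. These were 0.78 and 0.82 with the 75th percentile, the first of them called (adjusted p = 7.26e-05), and both were called with an intensity trend in limma (adjusted p = 4.59e-05 and 5.11e-05). The interaction is the same contrast as that between slides and between resident and moved pigs, which cannot be told apart. Groups of 2 arrays are too small to look for single arrays that lie apart.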

How the results depend on the processing

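Counts of member probes called are given with the share of all tested probes called in the same fit. With median signals they were 3 for breed (19.6%), 4 for altitude (17.5%) and 0 for DH minus DL (3.16%). With the 75th percentile they were 9 for breed (33.1%), 5 for the interaction (32.5%) and 2 for DH minus DL (11.5%), and with local background 0 for DH minus DL (11.1%). Above background on 8 arrays, where 12 member probes were tested, 5 were called for the interaction (49.1%) and 2 for DH minus DL (27.5%), and with no filter 0 for DH minus DL (5.37%). At an FDR below 0.05 there were 13 for breed (71.6%), 11 for altitude (70.8%), 12 for the interaction (73.7%), 10 for TH minus DH (58.9%) and 12 for DH minus DL (60.2%). Without moderation there were 4 for altitude (15.3%) and 0 for DH minus DL (2.70%). With an intensity trend there were 6 for the interaction (39.7%), 1 for TH minus DH (20.7%) and 5 for DH minus DL (22.8%). Without the TL arrays DH minus DL gave 0 (0%). The slide as a block is the same model, so that it could not change a count. Within a slide breed and altitude change together, with 0 called in slide 1 (14.1%) and 8 in slide 2 (33.9%).

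The replicate numbers did not pair the arrays, since deviations of same-numbered arrays correlated at -0.043 to 0.091. With the replicate block 3 member probes were called for breed (3697 of 34406 probes), 2 for altitude (8.39%), 3 for the interaction (11.9%), 0 for TH minus DH (0.605%) and 0 for DH minus DL (0%). Leaving out each array in turn gave 1 to 2 for breed (6.51% to 10.4%), 1 to 2 for altitude (3.57% to 6.96%), 1 to 3 for the interaction (7.78% to 11.3%) and 0 for TH minus DH (0.320% to 0.764%) and DH minus DL (0% to 0.116%), with fewer arrays fitted. Without moderation calls were lost by RELA for breed, NFKB1 P278054 and P105461 and NFKBIA P342398 for altitude and IKBKG for DH minus DL, and with no filter by P105461, P342398 and IKBKG for the same effects.

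Of the member effects under the alternatives, 1028 kept direction and side of the threshold, 120 lost a call, 64 gained one and 24 turned sign, none of them called. Direction could turn only with other values or an array left out, since the other settings refit the same values. The slide as a block, 28 of the 1028, could change nothing, and 42 of the 64 gains came from the looser threshold. With the 75th percentile the interaction turned to 0.10 for NFKBIA P165846, 0.53 for P342398 and 0.28 for P209997, TH minus DH of IKBKB P034186 to 0.078, and DH minus DL of NFKBIA P326068 to 0.12. With median signals and local background, P326068 turned to 0.030 and 0.013 for altitude and to 0.039 and 0.037 for the interaction, and P209997 to -0.088 and -0.088 for altitude. DH minus DL of P326068 was 0.010 with median signals. Leaving out arrays, values ran from -0.036 to 0.016 for altitude of NFKBIA P326068, -0.0023 to 0.037 for altitude of P209997, -0.066 to 0.037 for the interaction of P326068 and -0.016 to 0.010 for its DH minus DL. For TH minus DH they ran from -0.13 to 0.032 for IKBKB P232747, -0.13 to 0.056 for P034186, -0.072 to 0.15 for NFKB1 P420019 and -0.14 to 0.0096 for P105461.

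Signal over background limited 2 probes, IKBKB P034186 and NFKB1 P420019, whose spots were at lowest 2.73 and 2.50 times the local background. There were 2 arrays per group, and the median spot difference was 0.0538 log2 units between them and 0.0534 within an array. The p-values therefore cannot be taken to measure more than technical spread.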
